A study of Homo sapiens with 18 samples.

Results

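Sterol and fatty acid metabolism was followed through 36 genes of the 60623 in the deposited table, in RNA-seq libraries of THP-1 macrophages. The genes were taken by symbol, and each of the 36 was found. They comprise 31 genes of synthesis and of its control by sterol regulatory element-binding proteins (SREBPs). The other 5 are genes of the liver X receptors (LXRs) and cholesterol efflux. The 31, called synthesis genes below with their regulators included, were divided by role. There were 18 cholesterol synthesis enzymes, 6 regulators and sterol carriers of the SREBP pathway, and 7 enzymes of fatty acid synthesis, elongation and desaturation.

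THP-1 is an established human line from a monocytic leukaemia. It takes on a macrophage-like state with the phorbol ester PMA. The S14 line carried Siglec-14, the S5 line Siglec-5 and the EV line an empty vector, all in THP-1 cells that had received 100 nM PMA for 24 h. Both proteins are myeloid receptors for sialic acid. Siglec-14 signals through the activating adaptor DAP12, and Siglec-5 carries an inhibitory tail. For 48 h each line then received 50% conditioned medium (CM) from cells of the established colorectal cancer line SW620, or a mock treatment. The 6 groups, in the order S14 CM, S5 CM, EV CM, S14 mock, S5 mock and EV mock, held 3 libraries each. The sources used here do not give whether a line is a single clone or whether replicates were separate cultures. The p-values therefore cover only the spread among these libraries, which may be technical.

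SREBPs are made as membrane-bound precursors in the endoplasmic reticulum. When sterols are scarce, SCAP escorts them to the Golgi, where proteases release the active factor. When sterols are plentiful, INSIG proteins hold SCAP back. SREBP-2, the product of SREBF2, drives mainly cholesterol synthesis, and SREBP-1c, a product of SREBF1, drives mainly fatty acid synthesis. LXRs are nuclear receptors for oxidised sterols. They raise transcription of exporters that pass cholesterol to lipoproteins, and of SREBF1. In macrophages, which take up lipid-laden debris and lipoproteins, the SREBP and LXR arms together set the content of free cholesterol.

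Promoters were read for 31 of the 36 genes from RefSeq on GRCh38.p14, as the 250 bases before each start site. The TCACNCCAC pattern of the classical sterol response element lay in 1 of the 31 promoters, that of SREBF2, against 1.09% of 27305 genes. The shorter CACNCCA, which TCACNCCAC contains, lay in 14 of 31 (45.2%), against 17.4% of genes. Those 14 include the LXR genes ABCA1, MYLIP and NR1H3, so the share is not one of synthesis genes only. CCAAT, the box bound by NF-Y, a cofactor of SREBPs, lay in 22 of 31 (71%), against 37% of genes. Those 22 include the LXR genes MYLIP, NR1H3 and LPCAT3. The half-site GGTNA followed by 5 bases of any kind and GGTNA again, a direct repeat of the kind that LXR heterodimers bind, lay in 2 of 31 (HMGCS1 and ABCA1), against 0.67% of genes. Each pattern was searched on both strands, and a match describes letters only. The 5 promoters below are those of the SREBP-2 gene itself, of 3 synthesis genes called higher in S14 in at least 1 comparison and of the efflux gene ABCA1. Capitals mark TCACNCCAC for SREBF2, CACNCCA and CCAAT for INSIG1, MSMO1 and SCD, and the half-site repeat for ABCA1, on either strand. They lie at chr22:41832855-41833104, chr7:155297628-155297877, chr4:165327419-165327668 and chr10:100346983-100347232 on the plus strand and, for ABCA1, chr9:104928156-104928405 on the minus strand, each printed 5′ to 3′ along its gene. The gene positions given below come from GENCODE release 29, which places these 5 starts further upstream than RefSeq. Each window thus runs into the gene as placed there, and the ABCA1 repeat lies inside it.
SREBF2: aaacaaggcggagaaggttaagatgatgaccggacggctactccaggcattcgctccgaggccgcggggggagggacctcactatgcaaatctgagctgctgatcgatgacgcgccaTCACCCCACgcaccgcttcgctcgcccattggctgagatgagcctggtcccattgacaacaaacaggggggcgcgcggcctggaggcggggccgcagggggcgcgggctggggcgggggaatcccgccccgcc
INSIG1: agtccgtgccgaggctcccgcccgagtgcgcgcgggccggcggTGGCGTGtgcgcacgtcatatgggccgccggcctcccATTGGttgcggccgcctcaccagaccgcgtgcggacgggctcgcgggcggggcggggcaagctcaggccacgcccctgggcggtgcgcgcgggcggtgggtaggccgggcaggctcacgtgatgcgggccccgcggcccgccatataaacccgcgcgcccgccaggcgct
MSMO1: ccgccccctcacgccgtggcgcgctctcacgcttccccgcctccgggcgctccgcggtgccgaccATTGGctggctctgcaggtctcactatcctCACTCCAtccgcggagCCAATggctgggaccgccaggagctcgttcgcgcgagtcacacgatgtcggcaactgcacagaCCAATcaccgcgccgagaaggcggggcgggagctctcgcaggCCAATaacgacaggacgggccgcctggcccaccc
SCD: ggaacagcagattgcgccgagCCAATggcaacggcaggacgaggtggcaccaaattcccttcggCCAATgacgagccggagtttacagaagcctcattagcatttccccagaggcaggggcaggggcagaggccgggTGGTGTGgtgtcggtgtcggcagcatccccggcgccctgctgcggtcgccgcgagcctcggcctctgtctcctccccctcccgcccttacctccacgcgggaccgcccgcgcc
ABCA1: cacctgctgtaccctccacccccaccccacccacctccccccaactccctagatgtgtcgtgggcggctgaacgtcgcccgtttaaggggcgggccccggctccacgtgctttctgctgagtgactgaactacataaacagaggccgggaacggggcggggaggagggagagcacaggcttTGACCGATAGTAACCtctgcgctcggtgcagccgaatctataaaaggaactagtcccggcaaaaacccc

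Transcript levels of different genes were compared in TPM, a unit that corrects for gene length and sums to the same total in each library. Over the 18 libraries, the desaturase gene SCD had the highest mean level of the 36, 814 TPM, with 235 to 2172 TPM in single libraries. It was followed by FDPS (farnesyl diphosphate synthase, 343 TPM), SQLE (squalene epoxidase, 267 TPM), MSMO1 (methylsterol monooxygenase, 254 TPM) and FDFT1 (squalene synthase, 202 TPM). SREBF2 averaged 153 TPM and SREBF1 32.4 TPM. Among the LXR genes, NR1H3 averaged 107 TPM, ABCA1 67.2, MYLIP 23.0, LPCAT3 19.1 and ABCG1 13.9 TPM. The ranges of neighbours overlapped from SCD to FDFT1 and from NR1H3 to ABCG1. Those of SREBF2 (88.4 to 192 TPM) and SREBF1 (19.3 to 42.5 TPM) did not. ELOVL6, a fatty acid elongase, had 2 counts over all 18 libraries, so 35 of the 36 genes passed the expression filter. CYP51A1 (lanosterol demethylase) was lowest of these 35, at 7.69 TPM. Of its exon bases, 79.4% lie in other gene models on the same strand, so its reads cannot be assigned with certainty. The strand setting of the counting is not given, and 65.6% of the exon bases of LPCAT3 and 52.3% of those of ACAT2 lie opposite exons of neighbouring genes (among them EMG1 for LPCAT3, TCP1 and SOD2 for ACAT2).

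The libraries held 14962531 to 26045281 counts. SIGLEC14 was 503 to 926 CPM (counts scaled to library size, here with TMM factors, and not to gene length) in the S14 line, 29.5 to 44.1 CPM in the S5 line and 13.0 to 22.7 CPM in the EV line, and since SIGLEC5 and SIGLEC14 are near-identical over part of their length, some of these reads may be shared. Of 10 macrophage markers, 9 were at 88.5 CPM or more in every library, and CD68 was at 0.525 to 1.62 CPM. Of 12 epithelial markers, EPCAM, KRT19, KRT20 and CEACAM5 were at 0 in every library, 7 stayed below 1 CPM and CLDN7 was at 6.96 to 23.7 CPM. Replicate 3 stood apart from replicates 1 and 2 in every group. Chi-square per degree of freedom was 50.9 to 166 between replicate 3 and the others (12 pairs) and 3.58 to 20.4 between replicates 1 and 2 (6 pairs), all above what counting error alone gives. Mitochondrially encoded mRNAs took 3.97 to 4.52% of counts in replicate 3 and 1.49 to 3.60% in replicates 1 and 2. The sum of 8 proliferation markers was 649 CPM in S14 mock replicate 3, and 101 and 104.5 CPM in replicates 1 and 2 of that group. It was 808 CPM in S14 CM replicate 3, and 229 and 241 CPM in replicates 1 and 2. In the other 4 groups it was 896 to 1541 CPM in replicate 3 and 359 to 598 CPM in replicates 1 and 2. These differences move with several results below, and their part in them was not tested.

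The LXR arm was led by NR1H3, which encodes LXRα. It lies at chr11:47248300-47269032 on the plus strand (GRCh38, GENCODE release 29, as for all gene positions here). In CM it was at 341, 315 and 457 CPM in the S14 libraries, 72.4, 76.5 and 45.1 CPM in S5 and 67.3, 62.1 and 92.3 CPM in EV (replicates 1, 2 and 3, as in every set of 3 values below). In mock medium it was at 298, 322 and 319 CPM in S14, 64.8, 56.0 and 37.8 CPM in S5 and 58.5, 56.8 and 61.0 CPM in EV. Every S14 library, replicate 3 included, lay above every S5 and EV library. In edgeR's quasi-likelihood test over all 18 libraries, adjusted by Benjamini and Hochberg over 17851 genes, NR1H3 rose 5.02-fold in S14 against EV in CM, by 2.33 ± 0.23 on the log2 scale (estimate ± SE, adjusted p = 1.57e-05). It rose 5.32-fold against EV in mock medium (2.41 ± 0.24, adjusted p = 8.17e-06). Against S5 it rose 5.74-fold in CM (2.52 ± 0.24, adjusted p = 7.08e-06) and 5.92-fold in mock medium (2.57 ± 0.24, adjusted p = 5.77e-06). Bulk RNA cannot tell more cells expressing a gene from more RNA per cell. NR1H3 stayed called whichever 1 of the 6 libraries of a comparison was left out, with log2 differences of 2.15 to 2.77.

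The 4 LXR target genes gave smaller estimates than NR1H3 in all 4 comparisons. ABCA1, the exporter that lipidates apolipoprotein A-I, lies at chr9:104781002-104928237 on the minus strand. Without CM it stood at 419, 439 and 153 CPM in the S14 libraries, 206, 235 and 102 CPM in S5 and 224, 268 and 149 CPM in EV. Its CM values were 284, 307 and 159 CPM in S14, 219, 169 and 114 CPM in S5 and 234, 239 and 172 CPM in EV. S14 replicates 1 and 2 lay above all S5 and EV libraries in the same medium, and S14 replicate 3 lay among or below them. The differences were 0.66 ± 0.40 against EV and 0.90 ± 0.40 against S5 in mock medium, and 0.22 ± 0.40 and 0.58 ± 0.40 in CM, and none passed the test (adjusted p = 0.266, 0.124, 0.81 and 0.401 in that order).

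ABCG1, which exports cholesterol to mature high-density lipoprotein, lies at chr21:42199689-42297244 on the plus strand. Its mock-medium values were 59.4, 60.9 and 13.0 CPM in S14, 23.7, 23.9 and 3.79 CPM in S5 and 21.3, 28.5 and 7.94 CPM in EV. In CM it was at 39.7, 41.9 and 19.2 CPM in S14, 24.3, 21.5 and 5.84 CPM in S5 and 27.3, 26.01 and 13.6 CPM in EV. Replicate 3 had the lowest value of every group, and within each replicate number S14 was above both other lines. The fit without replicate number gave 1.21 ± 0.71 (adjusted p = 0.252) against EV and 1.37 ± 0.71 (adjusted p = 0.185) against S5 in mock medium. In CM it gave 0.59 ± 0.70 (adjusted p = 0.686) and 0.97 ± 0.70 (adjusted p = 0.432). With replicate number as a block, ABCG1 rose by 1.11 ± 0.27 (adjusted p = 0.00478) against EV and by 1.42 ± 0.27 (adjusted p = 0.000903) against S5 in mock medium, and by 1.14 ± 0.27 (adjusted p = 0.00629) against S5 in CM, and was not called against EV in CM (0.57 ± 0.27, adjusted p = 0.14). In that blocked fit ABCA1 also rose in mock medium, by 0.58 ± 0.17 (adjusted p = 0.0155) against EV and 0.86 ± 0.17 (adjusted p = 0.00116) against S5, and in CM by 0.56 ± 0.17 (adjusted p = 0.0246) against S5. The blocked fit called 37.4% (EV) and 38.5% (S5) of all genes in mock medium, and 23.6% and 26.6% in CM. These shares go with each blocked call of S14 against another line, here and below.

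MYLIP, an LXR-induced ubiquitin ligase that removes lipoprotein receptors, differed little in its mean. It averaged 22.0 ± 8.82 CPM in S14 CM, 22.9 ± 4.83 in S5 CM, 20.1 ± 5.35 in EV CM, 20.0 ± 7.90 in S14 mock, 22.8 ± 4.16 in S5 mock and 18.5 ± 4.48 in EV mock (SD, n = 3 each). Its 4 S14 differences lay between -0.19 and 0.13, each with an SE of 0.35, and none was called. LPCAT3, an acyltransferase that loads phospholipids with polyunsaturated chains and is another LXR target, was at 23.8, 21.4 and 26.1 CPM in S14 mock, 30.1, 31.7 and 35.8 CPM in S5 mock and 32.1, 31.2 and 26.4 CPM in EV mock. All S14 mock libraries lay below all S5 and EV mock libraries, and the differences of -0.45 ± 0.17 (adjusted p = 0.0741) against S5 and -0.33 ± 0.17 (adjusted p = 0.198) against EV were not called. With replicate number as a block the difference from S5 was called, at -0.45 ± 0.15 (adjusted p = 0.0258), beside 38.5% of all genes in that fit. In the fit over 18 libraries without the block, NR1H3 was the 1 gene called of the 5 LXR genes, in all 4 comparisons of S14 with another line. Of all genes, 11.1% (EV) and 13.8% (S5) were called there in CM, and 20.0% and 21.5% in mock medium.

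**Figure D1:**
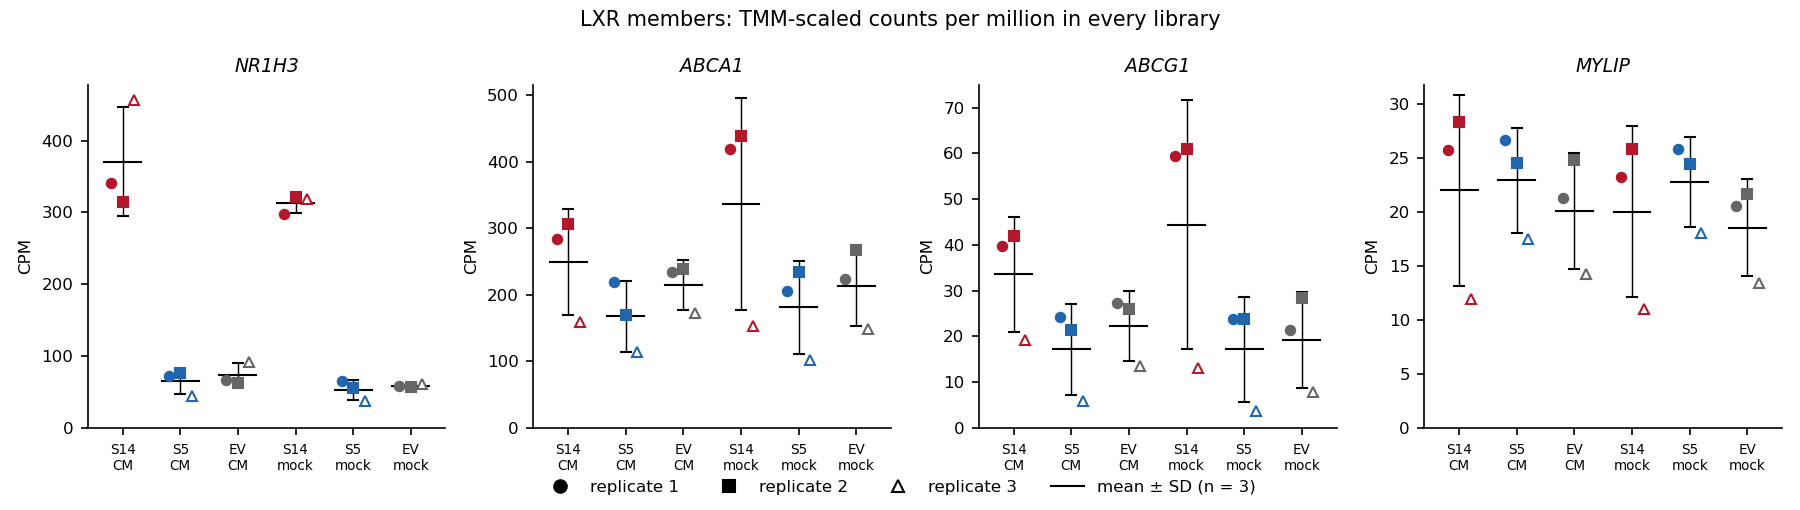
TMM-scaled CPM (y axes, starting at 0) of NR1H3, ABCA1, ABCG1 and MYLIP in each library of the 6 groups (x axes), with replicate 3 as open triangles and lines for the mean and SD of 3 libraries. NR1H3 is at 298 to 457 CPM in the 6 S14 libraries and at 37.8 to 92.3 CPM in the other 12, and ABCA1 and ABCG1 are highest in S14 replicates 1 and 2.

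In the synthesis arm, S14 against S5 in conditioned medium gave the largest number of calls between lines in the fit without the block. There 10 of the 30 tested synthesis genes rose and 1 fell (36.7%), against 13.8% of all genes, 8.9% higher and 4.88% lower. Of the 18 cholesterol enzymes, 7 rose and none fell, with a median log2 difference of 0.64 against -0.04 over all genes. IDI1 (isopentenyl-diphosphate isomerase, chr10:1039152-1049170) was at 147, 164 and 96.5 CPM in the S14 libraries, against 75.8, 78.3 and 84.0 CPM in S5. MSMO1 was at 484, 513 and 170.4 CPM in S14, against 162, 177 and 114 CPM in S5. SQLE was at 436, 523 and 309.7 CPM in S14, against 227, 225 and 211 CPM in S5. EBP, a sterol isomerase, was at 62.6, 69.9 and 48.7 CPM in S14, against 33.1, 41.5 and 40.2 CPM in S5. All S14 libraries lay above all S5 libraries for IDI1, SQLE and EBP, while MSMO1 in S14 replicate 3 was below S5 replicate 2. MSMO1 lies at chr4:165327623-165343160 and EBP at chrX:48521158-48528716. The increases were 0.77 ± 0.16 (adjusted p = 0.00437) for IDI1, 1.37 ± 0.32 (adjusted p = 0.00858) for MSMO1, 0.94 ± 0.23 (adjusted p = 0.012) for SQLE and 0.66 ± 0.17 (adjusted p = 0.0151) for EBP. The other 3 called enzymes, ACAT2 (acetoacetyl-CoA thiolase), HMGCS1 (HMG-CoA synthase) and CYP51A1, rose by 0.81, 1.27 and 1.00. The 11 enzymes not called, among them FDPS, FDFT1, MVK (mevalonate kinase), MVD (mevalonate diphosphate decarboxylase), SC5D (sterol desaturase) and HSD17B7 (a sterol ketoreductase), gave estimates of -0.65 to 0.68. In the blocked fit 12 of the 18 enzymes rose and 1, PMVK, fell, beside 26.6% of all genes called in that fit. The additional increases were those of SC5D (0.61 ± 0.18, adjusted p = 0.0209), MVD (0.60 ± 0.18, adjusted p = 0.02), FDFT1 (0.58 ± 0.20, adjusted p = 0.0426), LSS (0.47 ± 0.13, adjusted p = 0.013) and NSDHL (0.44 ± 0.16, adjusted p = 0.0478). FDFT1 had log2 ratios over S5 of 1.02, 0.84 and -0.20 in replicates 1, 2 and 3. SC5D, MVD, LSS and NSDHL were higher in S14 within each replicate number, SC5D by only 0.10 in replicate 3.

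In S14 against EV in CM, 4 of the 30 synthesis genes rose and 1 fell (16.7%), against 11.1% of all genes, 7.44% higher and 3.7% lower. Among the cholesterol enzymes IDI1 and EBP rose, the median of the 18 being 0.39 against -0.02 over all genes. IDI1 was at 89.9, 76.2 and 93.3 CPM and EBP at 45.6, 38.6 and 37.6 CPM in the EV libraries, each below all 3 S14 values given above. The increases were 0.65 ± 0.16 (adjusted p = 0.0143) for IDI1 and 0.57 ± 0.17 (adjusted p = 0.0364) for EBP. HMGCS1, which builds HMG-CoA from acetyl units, shows how the replicates divided. It was at 344, 359 and 107 CPM in S14, 119.6, 112 and 105 CPM in S5 and 153, 143 and 137 CPM in EV. S14 replicates 1 and 2 were far above every other CM library, and S14 replicate 3 was below all EV libraries and 2 of the 3 S5 libraries. Its difference from EV, 0.90 ± 0.35 (adjusted p = 0.124), was not called, nor was that of MSMO1, 0.94 ± 0.31 (adjusted p = 0.0678). In the blocked fit MSMO1 rose against EV by 0.84 ± 0.24 (adjusted p = 0.0222). Its log2 ratios over EV within replicates 1, 2 and 3 were 1.14, 1.47 and -0.26, so replicate 3 went the other way. LSS (lanosterol synthase) rose with the block by 0.38 ± 0.13 (adjusted p = 0.0414). The 16 enzymes not called without the block gave estimates of -0.56 to 0.94.

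In mock medium fewer of these genes differed. In S14 against S5, 2 of the 30 synthesis genes rose and 1 fell (10.0%), against 21.5% of all genes, 11.4% higher and 10.0% lower. In S14 against EV, 2 rose and none fell (6.67%), against 20.0% of all genes, 11.1% higher and 8.96% lower. Both shares were below those of all genes. SQLE was at 508, 615 and 330.4 CPM in S14, 297, 323 and 202 CPM in S5 and 357, 368 and 346 CPM in EV. It rose against S5 by 0.82 ± 0.23 (adjusted p = 0.0177), all S14 libraries lying above all S5 libraries, and S14 replicate 3 lay below the 3 EV libraries. No cholesterol enzyme was called in S14 against EV in this fit. The smallest p there was that of NSDHL, a sterol dehydrogenase, at 27.6, 33.2 and 25.5 CPM in S14 and 24.5, 19.8 and 23.0 CPM in EV, with a difference of 0.36 ± 0.18 (adjusted p = 0.169). The medians of the 18 enzymes were 0.25 against S5 and 0.16 against EV, beside -0.05 and -0.02 over all genes. Not all enzymes lay on the higher side. PMVK (phosphomevalonate kinase) was at 22.5, 22.8 and 39.0 CPM in S14, 41.3, 34.0 and 68.3 CPM in S5 and 36.01, 38.3 and 53.1 CPM in EV, lower in S14 within each replicate number. It was not called over 18 libraries without the block, and with it PMVK fell by 0.623 against EV and 0.761 against S5 in mock medium (adjusted p = 0.00291 and 0.000634), and by 0.610 and 0.672 in CM (adjusted p = 0.00543 and 0.00248). TM7SF2, a sterol reductase, was likewise called in that blocked fit, lower in S14 in mock medium (-0.58 ± 0.17, adjusted p = 0.0146 against EV and -0.66 ± 0.17, adjusted p = 0.00661 against S5). In the other direction, HMGCS1 (0.81 ± 0.28, adjusted p = 0.0332) and MSMO1 (0.71 ± 0.24, adjusted p = 0.0315) rose against S5 in mock medium with the block and were not called over 18 libraries without it (0.87 ± 0.35, adjusted p = 0.0957 and 0.69 ± 0.31, adjusted p = 0.128). The blocked fit called 37.4% (EV) and 38.5% (S5) of all genes in mock medium, and 23.6% and 26.6% in CM.

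Among the regulators, INSIG1 (chr7:155297776-155310235), itself a target of SREBP, was called in all 4 comparisons of S14 with another line. With CM it stood at 352, 360.0 and 163 CPM in S14, 130.5, 132 and 154 CPM in S5 and 185, 148 and 151 CPM in EV. In mock medium it was at 296, 344 and 198 CPM in S14, 166, 155 and 147 CPM in S5 and 174, 159 and 161 CPM in EV. All S14 libraries lay above the other lines except for S14 CM replicate 3, which was below EV CM replicate 1. The increases against S5 were 1.07 ± 0.25 (adjusted p = 0.00831) in CM and 0.84 ± 0.25 (adjusted p = 0.023) in mock medium. Those against EV were 0.85 ± 0.25 (adjusted p = 0.0336) in CM and 0.76 ± 0.24 (adjusted p = 0.0386) in mock medium. INSIG2, the paralogue with the same role, was at 13.2 to 19.0 CPM in the 18 libraries and was not called over all 18 in any comparison, with or without the block.

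STARD4 (chr5:111496033-111512590), which carries cholesterol between membranes, was at 274, 300.2 and 109.6 CPM in S14 CM, 125, 96.2 and 69.4 CPM in S5 CM and 113, 101 and 108 CPM in EV CM. S14 replicates 1 and 2 were the highest of the 9 CM libraries, and replicate 3 lay within the range of both other lines. STARD4 rose by 1.23 ± 0.30 (adjusted p = 0.0118) against S5 and by 1.08 ± 0.30 (adjusted p = 0.0276) against EV in CM. Mock-treated libraries had it at 205, 202 and 146 CPM in S14, 131, 132 and 87.6 CPM in S5 and 127, 129 and 136 CPM in EV, all S14 libraries being higher. These differences were not called (0.66 ± 0.30 against S5 and 0.50 ± 0.30 against EV), and with the block that from S5 was (0.67 ± 0.23, adjusted p = 0.0301).

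SCAP (chr3:47413694-47477126), the escort of SREBPs, was the 1 gene of the 35 called lower in S14 in the fit over 18 libraries without the block. In CM it was at 47.7, 40.7 and 52.9 CPM in S14, 65.9, 67.3 and 80.0 CPM in S5 and 69.1, 65.8 and 65.6 CPM in EV. Without CM it stood at 45.2, 45.9 and 57.6 CPM in S14, 64.6, 56.9 and 80.3 CPM in S5 and 66.3, 66.3 and 61.4 CPM in EV. All S14 libraries lay below the other lines in the same medium except S14 mock replicate 3, which was just above S5 mock replicate 2. SCAP fell by 0.593 ± 0.15 against S5 (adjusted p = 0.0134) and by 0.504 ± 0.15 against EV (adjusted p = 0.0372) in CM. In mock medium it fell by 0.440 ± 0.15 against S5 (adjusted p = 0.0437). Its difference from EV in mock medium, -0.38 ± 0.15 (adjusted p = 0.0791), was not called, and with the block it was (-0.40 ± 0.12, adjusted p = 0.0163).

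The genes of the SREBPs themselves were not called in the fit without the block. SREBF2 was at 476, 489 and 259 CPM in S14 CM, 338, 318 and 299 CPM in S5 CM and 399, 385 and 297 CPM in EV CM. In mock medium it was at 368, 409 and 245 CPM in S14, 351, 334 and 285 CPM in S5 and 385, 362 and 266 CPM in EV. Replicate 3 was the lowest library of each group and the lines overlapped. The estimate for S14 was 0.36 ± 0.24 against S5 and 0.18 ± 0.24 against EV in CM, and 0.07 ± 0.24 and 0.01 ± 0.24 in mock medium, where its sign turned with other scalings or left-out libraries. SREBF1, an LXR target as well as an SREBP gene, was at 71.6, 65.5 and 58.4 CPM in S14 mock, 87.1, 79.4 and 80.8 CPM in S5 mock and 92.9, 89.2 and 66.1 CPM in EV mock. Its CM values were 93.1, 77.6 and 66.8 CPM in S14, 78.3, 81.8 and 84.7 CPM in S5 and 99.0, 95.2 and 70.9 CPM in EV. S14 was lowest within each replicate number in mock medium and in no fixed order in CM. The differences of -0.34 ± 0.16 (adjusted p = 0.152) against EV and -0.34 ± 0.16 (adjusted p = 0.151) against S5 in mock medium were not called, and with the block they were (-0.34 ± 0.12, adjusted p = 0.0393 against EV and -0.35 ± 0.12, adjusted p = 0.0338 against S5).

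**Figure D2:**
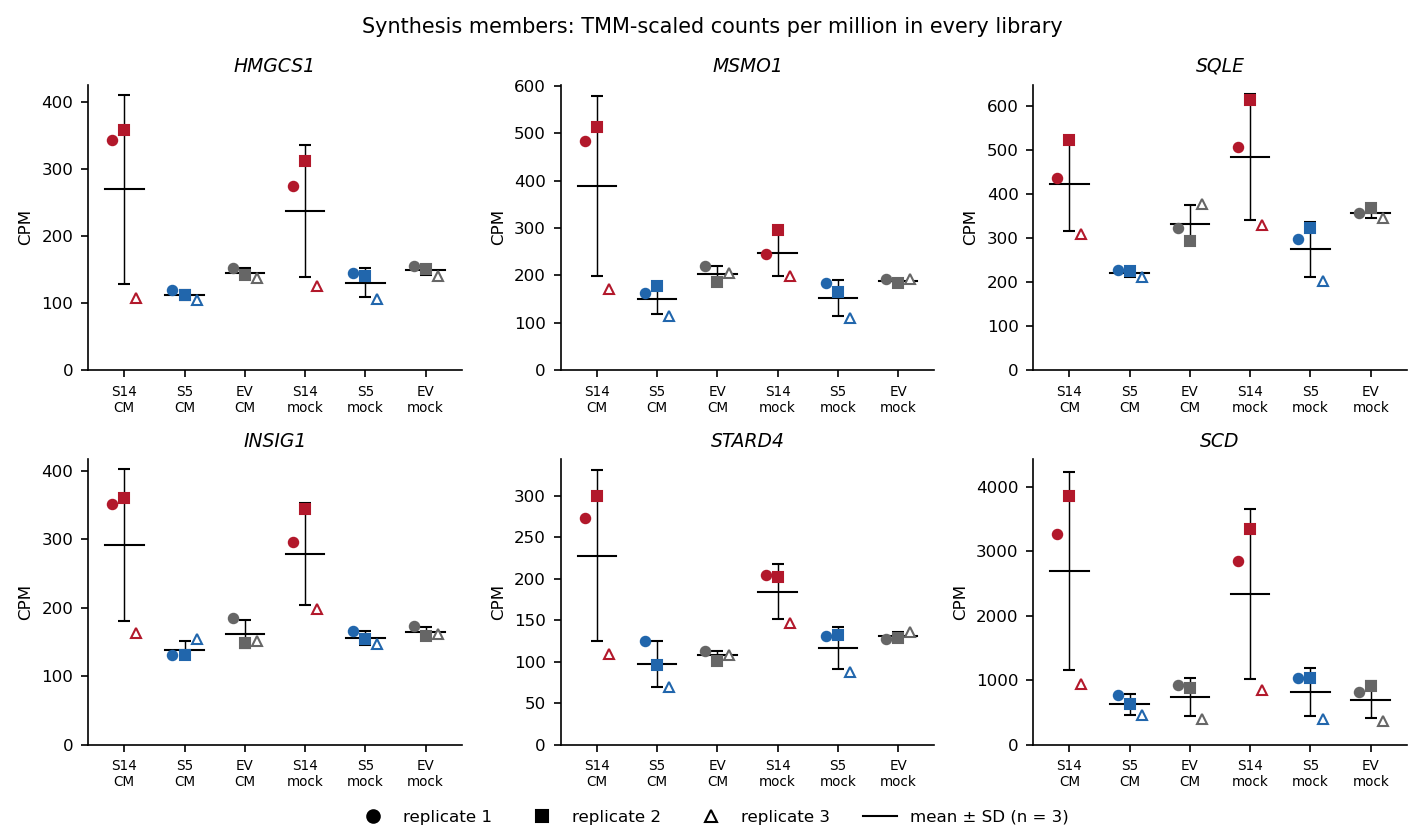
TMM-scaled CPM (y axes, starting at 0) of 6 synthesis genes in each library of the 6 groups (x axes), with replicate 3 as open triangles and lines for the mean and SD of 3 libraries. All 6 genes are highest in S14 replicates 1 and 2, and S14 replicate 3 lies below them for each gene.

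In fatty acid metabolism, SCD, the enzyme that makes monounsaturated fatty acids, had the largest estimate of the 30 tested synthesis genes in all 4 comparisons of S14 with another line. It lies at chr10:100347124-100364834 on the plus strand. In CM it was at 3277, 3863 and 947 CPM in S14, 779, 637 and 457 CPM in S5 and 929.8, 886 and 407 CPM in EV. Under mock treatment it was at 2846, 3343 and 850.0 CPM in S14, 1039.8, 1031 and 393 CPM in S5 and 812, 917 and 373 CPM in EV. Replicate 3 was low in every group, and within each replicate number S14 was above both other lines. In CM all S14 libraries lay above all others, whereas in mock medium S14 replicate 3 lay below 1 EV library and 2 S5 libraries. SCD rose 4.32-fold against S5 in CM (2.11 ± 0.58, adjusted p = 0.0245) and 3.35-fold against EV in mock medium (1.74 ± 0.58, adjusted p = 0.044). The differences of 1.86 ± 0.58 against EV in CM (adjusted p = 0.0501) and 1.51 ± 0.57 against S5 in mock medium (adjusted p = 0.0731) missed the threshold of 0.05. Blocked by replicate number, SCD rose in all 4, by 1.74 ± 0.22 (adjusted p = 3.82e-05) against EV in CM and by 1.44 ± 0.22 (adjusted p = 0.000109) against S5 in mock medium.

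No other fatty acid enzyme was called over 18 libraries without the block. FASN (fatty acid synthase), ACLY (ATP citrate lyase), ACACA (acetyl-CoA carboxylase) and the desaturases FADS1 and FADS2 gave estimates between -0.67 and 0.33 in the 4 comparisons of S14 with another line. FADS1, which makes polyunsaturated fatty acids, was at 140.3, 161 and 139 CPM in S14 mock and 225, 222 and 179.8 CPM in EV mock, all S14 libraries being lower. ACACA was likewise lower in all S14 mock libraries, at 53.8, 51.2 and 50.0 CPM against 74.4, 74.5 and 68.6 CPM in EV mock. With the block FADS1, ACACA and FADS2 fell against EV in mock medium by 0.514, 0.490 and 0.676 (adjusted p = 0.0351, 0.0369 and 0.0144). Against S5 in mock medium FADS2 fell with the block (-0.65 ± 0.20, adjusted p = 0.0178).

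**Figure D3:**
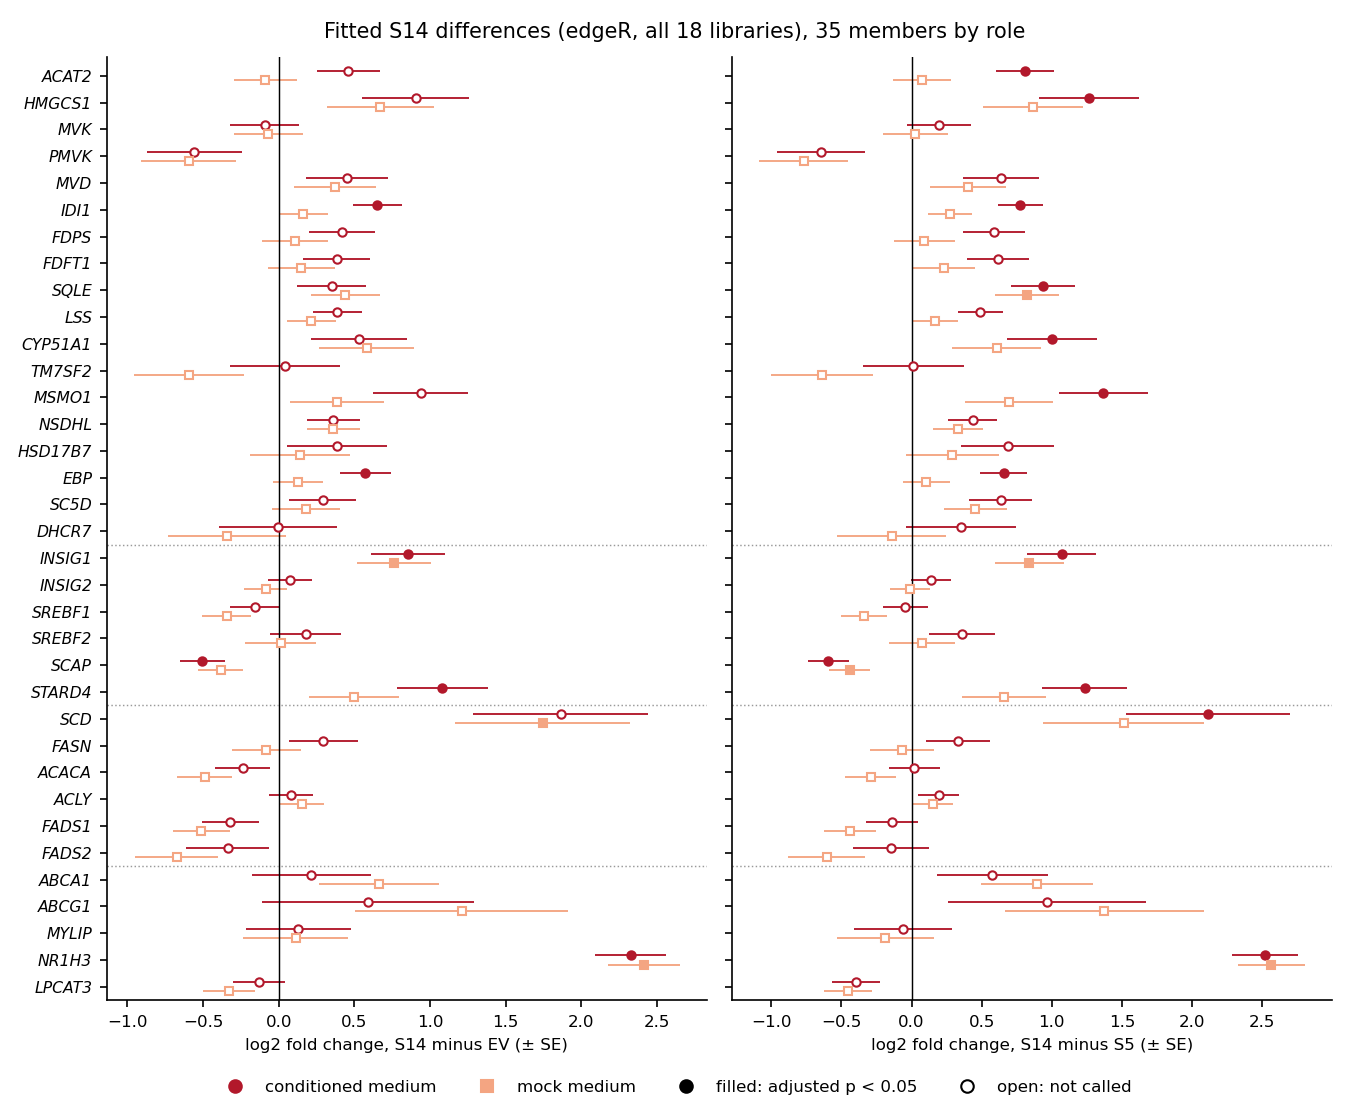
Log2 fold changes with standard errors (x axes) of the 35 tested genes (rows, grouped by role) in S14 against EV (left) and S14 against S5 (right), from the fit over 18 libraries, with filled marks at an adjusted p under 0.05. NR1H3 lies between 2.33 and 2.57 in all 4 comparisons, and the median of the 18 cholesterol enzymes is higher in conditioned medium (0.39 against EV, 0.64 against S5) than in mock medium (0.16 and 0.25).

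Within replicate numbers, the cholesterol enzymes of S14 divided replicate 3 from the others. In CM the median log2 ratio of the 18 enzymes in S14 over EV was 0.44, 0.79 and -0.27 in replicates 1, 2 and 3, with 16, 17 and 4 of the 18 above 0. Over S5 in CM it was 0.82, 0.88 and 0.08, with 17, 16 and 11 above 0. In mock medium it was 0.10, 0.41 and -0.16 over EV, with 11, 16 and 6 above 0, and 0.19, 0.61 and -0.18 over S5, with 13, 16 and 8 above 0. Thus the enzymes were mostly higher in S14 in replicates 1 and 2, and in replicate 3 most were lower than in EV. DHCR7, the reductase of the last step, marks the extreme, with ratios over EV in CM of 0.11, 0.40 and -1.13. NR1H3 had no such division, with ratios over EV in CM of 2.34, 2.34 and 2.31.

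**Figure D4:**
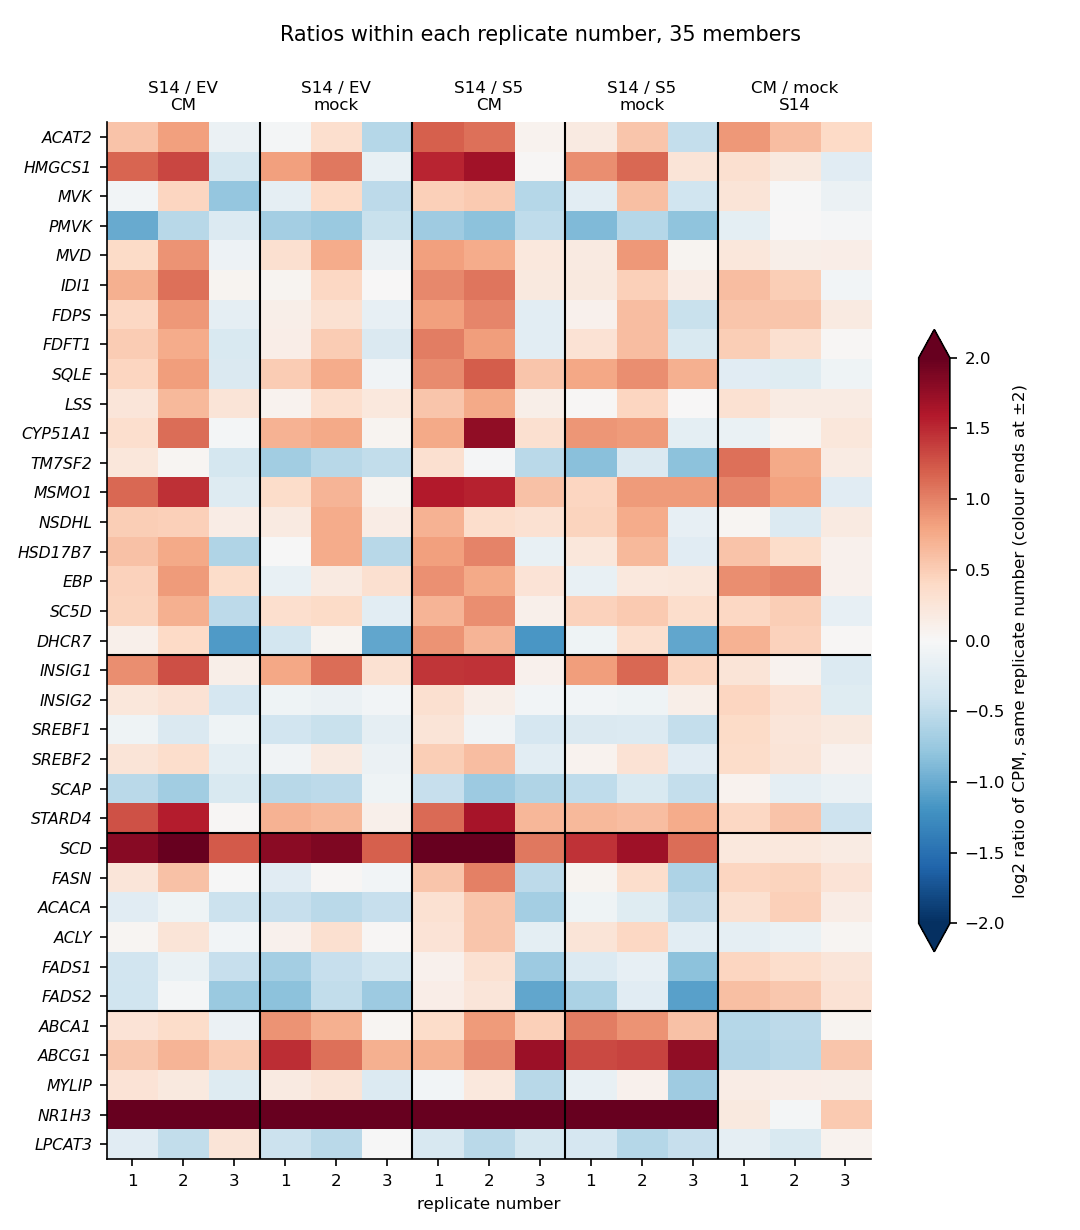
Log2 ratios of CPM between libraries of the same replicate number (columns) for the 35 tested genes (rows, by role), in red where the first-named group is higher and blue where it is lower. In S14 over EV in conditioned medium, 16 and 17 of the 18 cholesterol enzymes (top block) are above 0 in replicates 1 and 2 and 4 in replicate 3, while NR1H3 is at the red end in all 3.

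Replicates 1 and 2 alone gave many more calls, for these genes and for all genes. In CM 22 of the 35 rose and 5 fell against EV, beside 43.9% of all genes called, and 26 rose and 3 fell against S5, beside 42.5%. In mock medium 16 rose and 8 fell against EV, beside 55.6%, and 19 rose and 7 fell against S5, beside 54.8%. HMGCS1 rose in these 2 replicates by 1.21 ± 0.09 (adjusted p = 1.27e-11) against EV in CM and by 0.93 ± 0.09 (adjusted p = 1.04e-09) in mock medium, and MSMO1 by 1.26 ± 0.10 (adjusted p = 8.96e-11) and 0.52 ± 0.10 (adjusted p = 7.65e-05). Of the LXR genes, NR1H3, ABCA1 and ABCG1 rose and LPCAT3 fell in S14 against EV in both media. The 8 genes that fell against EV in mock medium were PMVK, TM7SF2, SREBF1, SCAP, ACACA, FADS1, FADS2 and LPCAT3. These p-values rest on pairs of libraries that lay close together.

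The calls over all 18 libraries depended on single libraries. Without S14 replicate 3 of the medium compared, the 35 genes gave 13 calls against EV and 19 against S5 in CM, beside 11.5% and 13.9% of all genes. In mock medium they gave 7 against EV and 9 against S5, beside 27.0% and 28.6%. Without any 1 of the other libraries of a comparison, 6.35 to 10.3% of all genes were called against EV and 9.25 to 10.4% against S5 in CM, and 12.3 to 17.3% and 13.7 to 16.8% in mock medium. Without S14 replicate 1 or 2, NR1H3 was the 1 call left in S14 against EV in both media and in S14 against S5 in mock medium. It was also the 1 call left against EV without any EV mock library or without EV CM replicate 2, while 3 calls were left without EV CM replicate 1 and 2 without EV CM replicate 3. Against S5 in CM, 6 and 4 calls were left without S14 replicates 1 and 2, and 8, 8 and 7 without S5 replicates 1, 2 and 3. Against S5 in mock medium, 3, 3 and 2 were left without S5 replicates 1, 2 and 3. The highest adjusted p without 1 library was 0.162 for SCD and 0.170 for INSIG1 against EV in mock medium, 0.137 for STARD4 and 0.173 for SCAP against EV in CM, and 0.229 for CYP51A1, 0.119 for HMGCS1 and 0.0950 for SCD against S5 in CM. Of the 12 calls against S5 in CM, IDI1, MSMO1, INSIG1 and NR1H3 stayed under 0.05 whichever library was left out, and the other 8 did not. With replicate number as a block, 12 members were called against EV and 15 against S5 in mock medium (5 and 9 of them higher, beside 37.4% and 38.5% of all genes), and 10 and 20 in CM (8 and 18 higher, beside 23.6% and 26.6%). All 25 calls of the fit without the block remained. With upper-quartile scaling, 1 rose and 3 fell against EV in mock medium, and 3 rose and 3 fell against S5. The median of all genes was also lower under that scaling than under TMM, as given below. The share of all genes called with it is not given here, so these counts cannot be read as particular to these genes.

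For conditioned medium against mock medium within a line, edgeR's test over 18 libraries called none of the 35 genes in any line. In S14, 0 of 35 were called, beside 0.0504% of all genes, 4 had an unadjusted p under 0.05, and DESeq2 called 1, EBP, beside 4.94% of all genes. The share of all genes at the unadjusted cut is not given here. EBP was at 62.6, 69.9 and 48.7 CPM in S14 CM, against 32.9, 35.7 and 45.8 CPM in S14 mock, with no overlap. Its difference was 0.66 ± 0.17 (adjusted p = 0.0734) by edgeR, and with the block it was called at 0.67 ± 0.16 (adjusted p = 0.022). TM7SF2 was at 47.7, 42.8 and 17.0 CPM in S14 CM, against 22.4, 25.3 and 15.3 CPM in S14 mock. It was higher in CM in each replicate, least in replicate 3, and was called with the block as well at 0.70 ± 0.17 (adjusted p = 0.0221), beside 11.0% of all genes. Without the block it gave 0.77 ± 0.36 (adjusted p = 0.302). In the other roles the smallest p values were those of SREBF1 (0.28 ± 0.16, adjusted p = 0.414), FADS2 (0.51 ± 0.27, adjusted p = 0.375) and NR1H3 (0.24 ± 0.22, adjusted p = 0.641).

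In replicates 1 and 2 of S14 alone, 17 of the 30 synthesis genes rose in CM and 1 fell, and of the 5 LXR genes none rose and 3 fell, beside 45.2% of all genes called. MSMO1 was at 484, 513 and 170.4 CPM in S14 CM, against 246, 296 and 199 CPM in S14 mock, and in replicates 1 and 2 it rose by 0.83 ± 0.10 (adjusted p = 1.82e-07). ACAT2 was at 126, 132 and 78.8 CPM in S14 CM, against 68.8, 85.8 and 60.0 CPM in S14 mock, and rose by 0.68 ± 0.10 (adjusted p = 2.89e-06). The 1 synthesis gene that fell was SQLE (-0.28 ± 0.10, adjusted p = 0.0225). ABCA1 and ABCG1, whose values are given above, fell by 0.595 ± 0.11 (adjusted p = 8.18e-05) and 0.615 ± 0.11 (adjusted p = 5.61e-05), and LPCAT3 fell too. In replicate 3 the ratios of CM to mock medium in S14 were -0.23 for MSMO1, 0.05 for ABCA1 and 0.56 for ABCG1 on the log2 scale. Over all 3 replicates ABCA1 gave -0.43 ± 0.40 (adjusted p = 0.643) and ABCG1 -0.40 ± 0.70 (adjusted p = 0.826). Without S14 CM replicate 3 alone, 7 of the 35 genes were called, beside 7.69% of all genes, and 1 was called without S14 mock replicate 3, beside 11.2%.

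In S5 and EV, conditioned medium called 0 of 35 genes in each, beside 0.0056% of all genes in each, with none at an unadjusted p under 0.05 and none called by DESeq2. The shares of all genes by DESeq2 and at that unadjusted cut are not given here, so these zeros cannot be read as particular to these genes. In S5 the smallest p by role belonged to SQLE (-0.31 ± 0.23), STARD4 (-0.27 ± 0.30), ACLY (-0.14 ± 0.15) and NR1H3 (0.29 ± 0.22), each at an adjusted p of 1. In EV it belonged to EBP (0.22 ± 0.17), STARD4 (-0.28 ± 0.30), FADS1 (0.15 ± 0.19) and LPCAT3 (-0.32 ± 0.17), also at an adjusted p of 1. In replicates 1 and 2 alone SCD, SQLE and HMGCS1 fell in S5 (by 0.57, 0.48 and 0.32, beside 7.06% of all genes) and LPCAT3 fell in EV (by 0.39, beside 3.17%).

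The gap between lines in the effect of conditioned medium was called by edgeR for none of the 35 genes, nor for any of the 17851 (0.0% in each of the 3 comparisons), and DESeq2 called no member. The share of all genes called by DESeq2 is not given for these comparisons. In S14 against S5, 3 genes had an unadjusted p under 0.05, and the smallest p by role belonged to ACAT2 (0.73 ± 0.29), STARD4 (0.57 ± 0.42), ACACA (0.31 ± 0.26) and ABCA1 (-0.32 ± 0.56). In S14 against EV, 1 gene did, and they belonged to IDI1 (0.49 ± 0.23), STARD4 (0.58 ± 0.42), FASN (0.38 ± 0.33) and LPCAT3 (0.20 ± 0.24). In S5 against EV none did, and they belonged to CYP51A1 (-0.45 ± 0.45), SREBF1 (-0.11 ± 0.23), SCD (-0.48 ± 0.79) and LPCAT3 (0.14 ± 0.24). The share of all genes at that unadjusted cut is not given here, so these counts cannot be read as particular to these genes. In replicates 1 and 2 alone the S14 response exceeded that of S5 for 17 genes and was lower for 1, beside 21.9% of all genes called, and exceeded that of EV for 8 and was lower for 2, beside 24.3%. Against EV the response difference there was 0.74 ± 0.14 (adjusted p = 0.000342) for MSMO1 and 0.71 ± 0.14 (adjusted p = 0.000563) for STARD4, and it was -0.69 ± 0.16 (adjusted p = 0.00221) for ABCG1 on the lower side.

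S5 and EV differed in none of the 35 genes in either medium by edgeR, beside 0.0% of all genes, and DESeq2 called none of the 35. The share of all genes called by DESeq2 is not given here either. In CM, SQLE was at 227, 225 and 211 CPM in S5 and 323, 293 and 379 CPM in EV, all S5 libraries being lower, with -0.59 ± 0.23 (unadjusted p = 0.0206, adjusted p = 1). It was the 1 gene of the 35 with an unadjusted p under 0.05, and none of the 35 had one in mock medium. The share of all genes at that cut is not given here. The other smallest p values by role in CM belonged to INSIG1 (-0.22 ± 0.24), ACACA (-0.26 ± 0.18) and LPCAT3 (0.27 ± 0.17). In mock medium they belonged to SQLE (-0.38 ± 0.23), STARD4 (-0.16 ± 0.30), ACACA (-0.20 ± 0.18) and MYLIP (0.30 ± 0.35). In replicates 1 and 2 alone 7 of the 35 genes fell in S5 in CM, beside 2.18% of all genes, and FADS1 and ACACA fell in mock medium, beside 1.97%. The 7 were ACACA, FADS1, DHCR7, ACAT2, SQLE, FADS2 and HMGCS1, by 0.36 to 0.60 on the log2 scale.

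Further genes of the same pathways, beyond the 36, were counted from lists of 29 for sterol and fatty acid metabolism (28 tested) and 15 for LXR partners and targets (12 tested). These lists too were chosen with earlier results of these data known, so their shares describe the lists and are no independent support. Of the 28, 10 rose and 1 fell in S14 against S5 in CM (39.3%, beside 13.8% of all genes), and 6 rose and 1 fell against EV in CM (25.0%, beside 11.1%). In mock medium 8 rose and 2 fell against S5 (35.7%, beside 21.5%), and 4 rose and 2 fell against EV (21.4%, beside 20.0%). Of the 12, 2 rose against S5 (16.7%, beside 13.8%) and 3 against EV (25.0%, beside 11.1%) in CM. In mock medium 2 rose against S5 (16.7%, beside 21.5%) and 4 against EV (33.3%, beside 20.0%), and none of the 12 fell in these 4 comparisons. The shares of the 28 against EV in mock medium and of the 12 against S5 were thus near or below those of all genes. The median log2 difference of the 28 was 0.58 and 0.39 in CM against S5 and EV, and that of the 12 was 0.29 and 0.32, beside -0.04 and -0.02 over all genes.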

How the data were processed

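Per the labels' protocols, libraries came from the TruSeq Stranded mRNA kit. Reads were processed with HISAT2 and GRCh38, per the submitters' processing notes. The sources used here do not give the counting program, annotation or strand setting. The authors deposited raw counts per gene for 18 libraries and, beside them, TPM values. Here the counts were tested with edgeR 4.0.16 (quasi-likelihood, TMM scaling, filterByExpr, 1 mean per group over 18 libraries, limma 3.58.1, R 4.3.3). Of 60623 genes, 16083 of them with no symbol, 17851 were tested, and calls were made at a Benjamini-Hochberg adjusted p under 0.05. Reported CPM are TMM-scaled. Same-numbered libraries deviated together from their group means in all 45 pairs (r = 0.155 to 0.794). Libraries of different number and group gave r = -0.676 to 0.510, which overlaps that range. Replicate number was taken to pair libraries and used as a block in an alternative fit. Whether replicates 1 and 2 are matched by number, apart from the separation of replicate 3, was not tested. Other alternatives were DESeq2 1.42.0, other scalings, no filter, replicates 1 and 2 alone, the compared groups alone and leaving out each library. The edgeR test was tried on simulated data with the same spread for every gene and no separation of replicate 3. That trial does not cover the separation seen here. The genes and lists were chosen with earlier results of these data known. In each comparison the genes described are those called (up to 4 by p per role), the smallest p of a role without a call, and the regulators and LXR genes.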

Additional observations from a re-analysis of the deposited data

How the results depend on the processing

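With replicate number as a block, the members called numbered 12 (S14 against EV, mock), 10 (CM), 15 (S14 against S5, mock), 20 (CM) and 2 (CM against mock in S14), and the block changed no other count. In replicates 1 and 2 alone they numbered 24, 27, 26 and 29 for S14 against EV and S5 in that order, 2 and 7 for S5 against EV in mock medium and CM, 1, 3 and 21 for CM against mock in EV, S5 and S14, and 10 and 18 for the response of S14 against that of EV and S5. With the compared groups alone, 1 was called in S14 against EV in CM, 1 and 2 in S14 against S5 in mock medium and CM. DESeq2 called 1 for CM against mock in S14. Leaving out 1 library gave 1 to 7 and 1 to 13 calls in S14 against EV (mock, CM), 1 to 9 and 4 to 19 in S14 against S5, and 0 to 7 for CM against mock in S14. Upper-quartile scaling put the median of all genes at -0.12 and -0.14 in mock medium (S14 against EV and S5), beside -0.02 and -0.05 with TMM.

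Uncalled estimates changed sign as follows, and the cause was not tested. SREBF2 in S14 against EV in mock medium was -0.093 with upper-quartile scaling, -0.0074 with those groups alone and -0.14 to 0.20 without 1 library. Against S5 it was -0.026 with upper-quartile scaling and -0.079 to 0.26 without 1 library. In replicates 1 and 2 alone, SREBF1 and MYLIP in S14 against S5 in CM were 0.057 and 0.048, and STARD4 in S5 against EV in mock medium was 0.033. Without 1 library MYLIP was -0.11 to 0.40 and -0.095 to 0.43 in S14 against EV (mock, CM) and -0.41 to 0.11 and -0.28 to 0.24 in S14 against S5. SREBF1 was -0.18 to 0.063 in S14 against S5 in CM and -0.23 to 0.038 for the response of S5 against EV. LPCAT3 was -0.0090 to 0.24 for that response, and SQLE -0.41 to 0.012 for CM against mock in S14.

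Of the 25 calls, 25 remained with the block and with DESeq2, 24 with DESeq2 size factors, 21 with upper-quartile scaling, 18 without the filter and 5 with the compared groups alone. Over the libraries left out in turn, calls remained in 80 cases and were lost in 70. ELOVL6 was too low to test at this depth.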
